A study of Homo sapiens with 30 samples.

Results

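The 12 libraries described here hold mRNA from HEK293, an established cell line from human embryonic kidney, in cells that received an EGFP(R96) mistranslation reporter and no tRNA with it. They are 12 of the 30 libraries of the series, chosen by their titles, and fall into 4 groups of 3: EGFP(R96W), EGFP(R96H), EGFP(R96C) and EGFP(R96Q). The groups differ by label only in the codon that stands in for arginine in EGFP, which codes for tryptophan, histidine, cysteine or glutamine. Otherwise they share their treatment: wild-type HEK293 cells, Lipofectamine, a plasmid coding for an EGFP-mCherry fusion, sorting of mCherry-positive cells 48 h later, and polyA-selected total RNA. The other 18 libraries carry an engineered missense-correcting tRNA (mc-tRNA) with 1 of these reporters (12 libraries) or the EGFP(R65) reporter with and without one (6 libraries). None of the 12 libraries received an mc-tRNA, and no group of untransfected cells or cells with unmutated EGFP was analysed here, so each reporter is set against the other 3 reporters.

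In EGFP this arginine lies beside the chromophore and helps it to form, so the substituted proteins fluoresce poorly until a tRNA inserts arginine at the altered codon, while mCherry marks the transfected cells. Foreign plasmid DNA and an abundant foreign protein can each reach a small set of stress pathways in human cells. These are the integrated stress response, in which phosphorylated eIF2 favours translation of the transcription factor ATF4, the unfolded protein response of the endoplasmic reticulum (ER), the heat shock response, p53, and interferon signalling. The comparison asks how far cells with the 4 reporters differ before any mc-tRNA is added, which is the baseline against which the series sets each mc-tRNA.

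Gene totals were 39961504 to 55446962 counts per library, and 28803 to 31189 genes had a count. A library with 0 counts of a gene allows up to 3 counts, or 0.0541 to 0.0751 CPM (counts relative to library size), for counting error only. The labels give no transfection, sorting or library day, so the reporter and any day that its 3 libraries share cannot be told apart. All 9 HEK293 markers were present in all 12 libraries, with VIM at 444 to 607 CPM, LIN28B at 87.4 to 113 CPM and PAX2 at 2.57 to 4.19 CPM. Of the 13 markers of other cells, CD3E and HBB had 0 counts throughout, and PTPRC, KRT5, KRT14, LYZ and DCN had 5, 2, 1, 14 and 33 counts over all 12 libraries. The summed level of the other-cell markers, most of it COL1A1 at 14.9 to 21.5 CPM, was 18.9 to 21.9 CPM with EGFP(R96W), 20.5 to 23.8 with EGFP(R96H), 22.8 to 24.9 with EGFP(R96C) and 25.3 to 26.5 with EGFP(R96Q). Its part in the results was not tested. On the first principal component of log2 CPM, with 37.7% of the variance, EGFP(R96W) libraries lay at 14.42 to 25.41 and EGFP(R96H) libraries at 32.8 to 47.84, while EGFP(R96C) libraries lay at -43.86 to -29.82 and EGFP(R96Q) libraries at -33.88 to -14.96. On the second component (15.1%) 2 libraries stood apart from their groups: EGFP(R96W) replicate 3 was at -16.53 where the other 2 were at 20.76 and 15.66, and EGFP(R96C) replicate 3 was at 4.979 where the other 2 were at -30.97 and -37.11. Counts over all genes that moved by more than 1.5 times without 1 of these libraries are given with and without it. Smaller moves lie within the leave-one-out ranges given at the end. Several list counts are also given both ways.

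**Figure D1:**
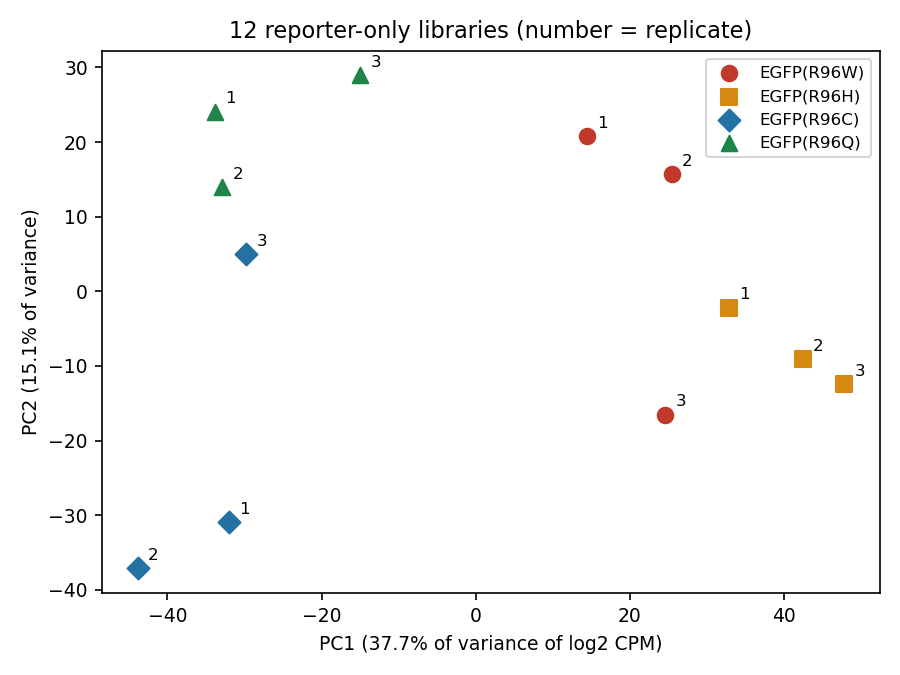
The plot of the first (37.7% of the variance) against the second (15.1%) principal component of log2 CPM has 1 point per library, coloured by reporter. EGFP(R96W) and EGFP(R96H) lie on the positive side of the first component and EGFP(R96C) and EGFP(R96Q) on the negative side, with replicate 3 of EGFP(R96W) and of EGFP(R96C) away from the other 2 of its group on the second.

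More than a few genes separated the reporters. In a quasi-likelihood F-test (edgeR, adjusted p under 0.05 over 20676 genes), 11300 genes, 54.7% of those tested, differed among the 4 groups. By pairs, 1954 genes (9.45%) differed between EGFP(R96W) and EGFP(R96H), and 2189 (10.6%) between EGFP(R96C) and EGFP(R96Q). The pairs across these 2 couples gave more: 7359 (35.6%) for EGFP(R96W) against EGFP(R96C), 5036 (24.4%) for EGFP(R96W) against EGFP(R96Q), 9065 (43.8%) for EGFP(R96H) against EGFP(R96C) and 7631 (36.9%) for EGFP(R96H) against EGFP(R96Q). The differences were mostly small. At least 2-fold changes numbered 300 higher and 1025 lower with EGFP(R96H) against EGFP(R96Q), and 31 higher and 73 lower with EGFP(R96C) against EGFP(R96Q).

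Each reporter was also set against the mean of the other 3, and "rose" and "fell" refer to that contrast unless a pair is named. With EGFP(R96W), 2422 genes (11.7%) rose and 1735 (8.39%) fell. With EGFP(R96H), 3907 (18.9%) rose and 3590 (17.4%) fell. With EGFP(R96C), 3788 (18.3%) rose and 3845 (18.6%) fell, and with EGFP(R96Q), 2393 (11.6%) rose and 2080 (10.1%) fell. These 4 contrasts use the same 12 libraries. With EGFP(R96W), EGFP(R96H), EGFP(R96C) and EGFP(R96Q), 5.59%, 15.5%, 11.1% and 7.39% of genes tested had all 3 libraries above or all below the other 9. The largest rises and falls of each reporter were picked among such genes, so their lack of overlap follows from the choice. The median log2 change over all genes tested was 0.00, 0.00, 0.01 and -0.01 for EGFP(R96W), EGFP(R96H), EGFP(R96C) and EGFP(R96Q), against which the median of each gene list is to be read. The rises and falls counted in each list are to be read against the percentages of all genes that rose and fell. A count near that share is not a trait of the list. The closest pairs depended most on single libraries: the EGFP(R96W) against EGFP(R96H) count was 634, 743, 739, 835 or 1203 without EGFP(R96W) replicate 1 or 2 or EGFP(R96H) replicate 3, 2 or 1, and the EGFP(R96C) against EGFP(R96Q) count was 464, 649, 1060 or 3855 without EGFP(R96Q) replicate 3 or EGFP(R96C) replicate 2, 1 or 3. Without EGFP(R96W) replicate 2, EGFP(R96Q) replicate 1 or EGFP(R96Q) replicate 2 the EGFP(R96W) against EGFP(R96Q) count was 2879, 3070 or 3195. Against the other 3 reporters, EGFP(R96W) had 1297 called genes without its replicate 2 and 2367 without its replicate 1 in place of 4157, EGFP(R96H) had 4573 without its replicate 3 in place of 7497, and EGFP(R96Q) had 2200 or 2404 without its replicate 1 or 2 in place of 4473. Scaling to library totals in place of TMM moved the split of several counts: 584 higher and 2022 lower for EGFP(R96C) against EGFP(R96Q) in place of 1160 and 1029, 2704 and 4905 for EGFP(R96H) against EGFP(R96Q) in place of 3864 and 3767, 1747 and 3305 for EGFP(R96W) against EGFP(R96Q) in place of 2681 and 2355, and 3576 and 992 for EGFP(R96Q) against the rest in place of 2393 and 2080. With offsets for GC content and length, an alternative chosen after seeing the data, EGFP(R96W) against the rest gave 1380 higher and 1621 lower.

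Targets of the integrated stress response separated the 4 reporters in 31 of the 36 genes listed and tested. With EGFP(R96Q), 30 of 36 fell and 0 rose (median log2 change -0.36), and with EGFP(R96C) 14 fell and 3 rose (median -0.21). With EGFP(R96H), 20 rose and 3 fell (median 0.30), and with EGFP(R96W) 19 rose and 0 fell (median 0.26). The EGFP(R96W) count was 10 without its replicate 2. The ATF4 heterodimer is known to bind a short element, TGATGNAA, in such promoters. Searched on both strands from 250 bases before to 50 bases after the start (RefSeq, GRCh38.p14), it was found in 6 of the 29 listed promoters that matched (20.7%) and in 1003 of all 27305 promoters (3.67%), which is a description of sequence and not of binding. Of the 6, the 4 with the element upstream of the RefSeq start are shown, each as 60 bases on the gene's strand with the element in capitals. The RefSeq starts of ASNS and ATF3 differ from those of the gene positions printed below, which are from GENCODE 29. The ASNS stretch lies within the gene position printed for ASNS. The ASNS stretch is chr7:97872443-97872502 (minus strand, element 68 bases before the start), the ATF3 stretch chr1:212565190-212565249 (plus strand, 191 bases before), the CHAC1 stretch chr15:40953236-40953295 (plus strand, element on the opposite strand, 209 bases before) and the AARS1 stretch chr16:70289660-70289719 (minus strand, element on the opposite strand, 187 bases before).
ASNS: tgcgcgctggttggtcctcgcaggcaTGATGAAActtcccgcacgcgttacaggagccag
ATF3: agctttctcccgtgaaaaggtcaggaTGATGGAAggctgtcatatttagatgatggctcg
CHAC1: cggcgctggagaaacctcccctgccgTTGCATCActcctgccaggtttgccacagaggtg
AARS1: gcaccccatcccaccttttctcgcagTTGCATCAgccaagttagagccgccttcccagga

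ASNS, which makes asparagine (ENSG00000070669, chr7:97852118-97872542), had 584, 704 and 829 CPM with EGFP(R96W), 596, 725 and 869 with EGFP(R96H), 474, 456 and 413 with EGFP(R96C) and 364, 393 and 395 with EGFP(R96Q). All 6 EGFP(R96W) and EGFP(R96H) libraries lay above all 6 others, and the EGFP(R96Q) libraries lay below all 9 others. ASNS fell by 0.64 ± 0.11 on the log2 scale with EGFP(R96Q) (SE, edgeR adjusted p = 0.00299). SLC7A11, the cystine importer and a target of both ATF4 and NRF2 (chr4:138164097-138242349), had 136.8, 166.1 and 156.2 CPM with EGFP(R96W), 132.2, 163.7 and 187.1 with EGFP(R96H), 56.5, 47.1 and 50.8 with EGFP(R96C) and 63.1, 56 and 68.9 with EGFP(R96Q). The first 2 reporters overlapped each other and lay far above the other 2. The EGFP(R96H) against EGFP(R96Q) difference was 1.31 ± 0.12 (adjusted p = 6.07e-06), and the EGFP(R96W) against EGFP(R96H) difference was -0.03 ± 0.11 (adjusted p = 0.907). CHAC1, which degrades glutathione, averaged 49.7 ± 8.46 CPM with EGFP(R96H), against 42.6 ± 14.5 with EGFP(R96W), 25.7 ± 2.95 with EGFP(R96C) and 20.5 ± 1.05 with EGFP(R96Q) (SD, n = 3 each). It rose with EGFP(R96H) by 0.79 ± 0.17 (adjusted p = 0.00672) and fell with EGFP(R96Q) by 0.85 ± 0.19 (adjusted p = 0.0139).

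Members of the list did not all share that order. ATF3, a stress-induced transcription factor (chr1:212565334-212620777), had 156.9, 165.9 and 188.5 CPM with EGFP(R96W), 108.2, 128.6 and 130.02 with EGFP(R96H), 146.4, 152.4 and 148.8 with EGFP(R96C) and 131.8, 119.8 and 113.98 with EGFP(R96Q). It rose with EGFP(R96W) by 0.41 ± 0.06 (adjusted p = 0.000553) but fell with EGFP(R96H) by 0.29 ± 0.07 (adjusted p = 0.0031), where ASNS and SLC7A11 rose. DDIT3, the pro-apoptotic factor CHOP, averaged 49.5 ± 11.8 CPM with EGFP(R96W), 40.6 ± 9.64 with EGFP(R96H), 31.9 ± 1.63 with EGFP(R96C) and 23.5 ± 0.769 with EGFP(R96Q). It rose with EGFP(R96W) by 0.69 ± 0.14 (adjusted p = 0.00831) and was not called with EGFP(R96H) (0.25 ± 0.15, adjusted p = 0.208). The amino acid carriers SLC7A1 and SLC38A2 and the tRNA exportin XPOT rose with EGFP(R96W) by 0.27 to 0.33 and with EGFP(R96H) by 0.41 to 0.57. The ATF4 inhibitor TRIB3 was not called in any of the 4 contrasts (adjusted p 0.0849 to 0.47), and SESN2 averaged 199 to 227 CPM in the 4 groups (F-test adjusted p = 0.538).

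**Figure D2:**
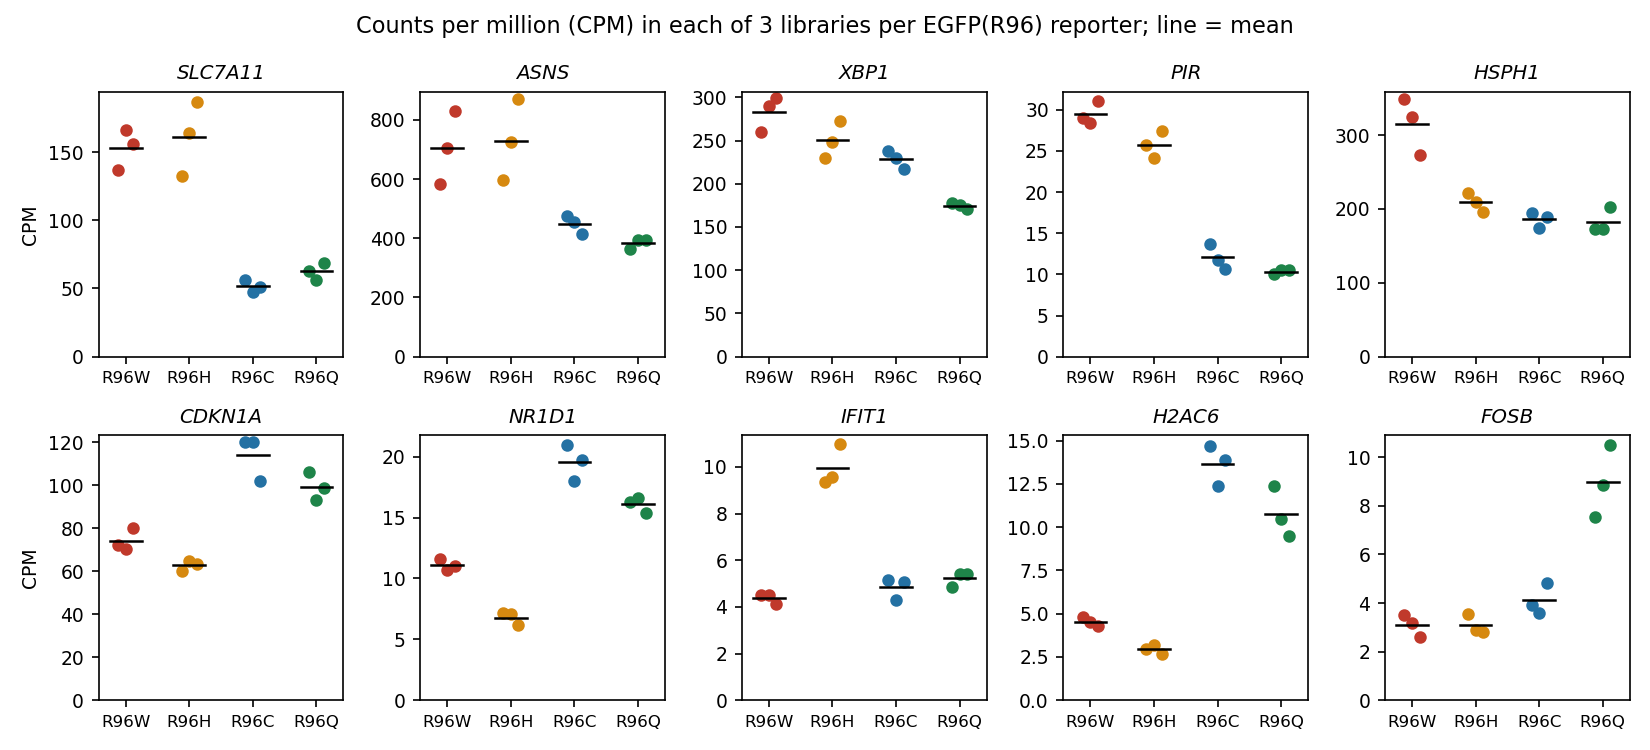
The plots show CPM on linear axes for 10 genes in the 12 libraries, with 1 point per library, 1 column per reporter and a line at the mean of 3. SLC7A11, ASNS and PIR are high with EGFP(R96W) and EGFP(R96H), H2AC6 is high with EGFP(R96C) and EGFP(R96Q), IFIT1 stands out with EGFP(R96H) at 9.34 to 11 CPM and FOSB with EGFP(R96Q) at 7.56 to 10.5 CPM.

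Cytosolic aminoacyl-tRNA synthetases charge tRNAs and include ATF4 targets. Of 23 tested, 16 fell and 0 rose with EGFP(R96Q) (median -0.22), and 11 rose and 1 fell with EGFP(R96W) (median 0.17, with 7 rising without its replicate 2). With EGFP(R96H), 6 rose and 3 fell (median 0.06, and -0.01 with GC and length offsets), and with EGFP(R96C) 4 rose and 6 fell (median 0.02, with 3 falling under those offsets). NARS1, the asparaginyl-tRNA synthetase, averaged 199.6 ± 13.6 CPM with EGFP(R96W), 208.8 ± 18.7 with EGFP(R96H), 153.3 ± 9.64 with EGFP(R96C) and 140.99 ± 1.65 with EGFP(R96Q). AARS1 fell with EGFP(R96Q) by 0.30 ± 0.07 (adjusted p = 0.00597), as did WARS1, the tryptophanyl-tRNA synthetase, by 0.37 ± 0.07 (adjusted p = 0.00213). With the tryptophan reporter EGFP(R96W), WARS1 rose by 0.26 ± 0.07 (adjusted p = 0.0146).

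Genes of the ER unfolded protein response fell with EGFP(R96Q) and more of them rose than fell with EGFP(R96W) and EGFP(R96H). Of 28, 16 fell and 0 rose with EGFP(R96Q) (median -0.17), 13 rose and 1 fell with EGFP(R96H) (median 0.13), 11 rose and 2 fell with EGFP(R96W) (median 0.05), and 5 rose and 9 fell with EGFP(R96C) (median 0.00, with 3 rising without its replicate 2 and 8 with GC and length offsets). HSPA5, the main ER chaperone (chr9:125234853-125241330), had 669, 678 and 726 CPM with EGFP(R96W), 657, 695 and 690 with EGFP(R96H), 561, 540 and 511 with EGFP(R96C) and 490, 519 and 530 with EGFP(R96Q). The 6 libraries of the first 2 reporters lay above the other 6, by less than 2-fold. XBP1, whose spliced mRNA drives the response, fell with EGFP(R96Q) by 0.50 ± 0.06 (adjusted p = 3.83e-05) and rose with EGFP(R96W) by 0.42 ± 0.05 (adjusted p = 0.000131). HERPUD1, which serves ER-associated degradation, fell with EGFP(R96Q) by 0.41 ± 0.05 (adjusted p = 0.000141) and rose with EGFP(R96H) by 0.33 ± 0.05 (adjusted p = 0.000117).

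Cytosolic chaperones and heat shock genes were highest with EGFP(R96W). Of 24 tested (DNAJA4 was below the count filter), 15 rose and 2 fell with EGFP(R96W) (median 0.28), 9 rose and 7 fell with EGFP(R96C) (median 0.10), 2 rose and 11 fell with EGFP(R96H) (median -0.16), and 0 rose and 9 fell with EGFP(R96Q) (median -0.19). The EGFP(R96H) falls were 6 without its replicate 3, the EGFP(R96C) rises 5 without its replicate 1 or 2 and its falls 4 without its replicate 1 or with GC and length offsets, which also gave a median of 0.18 with EGFP(R96W), and the EGFP(R96Q) falls 14 without EGFP(R96W) replicate 3 and 5 with library totals. HSPH1, an HSP70 exchange factor (chr13:31134974-31162388), had 350, 324 and 273 CPM with EGFP(R96W), against 221, 210 and 196 with EGFP(R96H), 195, 174 and 190 with EGFP(R96C) and 173, 174 and 202 with EGFP(R96Q). The 3 EGFP(R96W) libraries lay above all others, and the rise was 0.74 ± 0.07 (adjusted p = 6.31e-06). DNAJB1, an HSP40 co-chaperone (chr19:14514770-14529770), averaged 146.6 ± 9.63 CPM with EGFP(R96W), 98.9 ± 3.73 with EGFP(R96H), 130.3 ± 2.47 with EGFP(R96C) and 96.8 ± 3.3 with EGFP(R96Q) (SD, n = 3 each). EGFP(R96W) and EGFP(R96C) lay above the other 2 with no overlap, an order unlike that of ASNS, and DNAJB1 rose with EGFP(R96W) by 0.47 ± 0.05 (adjusted p = 2.04e-05). The inducible HSP70 gene HSPA1A stayed near 1 CPM: 1.73, 0.825 and 0.936 CPM with EGFP(R96W), 0.585, 0.547 and 0.398 with EGFP(R96H), 0.978, 1.21 and 1.18 with EGFP(R96C) and 0.347, 0.779 and 0.927 with EGFP(R96Q). It shares sequence with HSPA1B, which leaves the counts of both uncertain. It fell with EGFP(R96H) by 0.95 ± 0.29 (adjusted p = 0.015), a call that was lost without EGFP(R96H) replicate 3. Subunits of the 26S proteasome moved by less: of 31, 12 rose with EGFP(R96C) (median 0.14, with 7 or 19 rising without its replicate 2 or 3), 8 rose with EGFP(R96W) (median 0.08, with 3 rising without its replicate 2), and 15 fell with EGFP(R96Q) (median -0.17, with 9 falling under library totals).

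Targets of p53 were lowest with EGFP(R96H). Of 22, 20 fell and 1 rose with EGFP(R96H) (median -0.44), while 14 rose and 2 fell with EGFP(R96C) (median 0.26), 11 rose and 1 fell with EGFP(R96Q) (median 0.22), and 2 rose and 3 fell with EGFP(R96W) (median -0.03). The EGFP(R96H) falls were 13 without its replicate 1, and the EGFP(R96Q) rises were 18 with library totals. CDKN1A, the cell cycle inhibitor p21 (chr6:36676460-36687339), had 60.3, 64.7 and 63.2 CPM with EGFP(R96H), against 72.1, 70.4 and 80.2 with EGFP(R96W), 120.1, 120.1 and 101.8 with EGFP(R96C) and 106.2, 93 and 98.8 with EGFP(R96Q). The 3 EGFP(R96H) libraries were the lowest of the 12, and the change was -0.62 ± 0.07 (adjusted p = 3.72e-06). BTG2, an antiproliferative factor, and PHLDA3, an inhibitor of AKT, fell with EGFP(R96H) by 0.81 ± 0.07 and 0.69 ± 0.06 (adjusted p 3.9e-07 and 1.05e-06). GDF15, a secreted stress hormone that is a target of p53 and of ATF4, averaged 8.96 ± 1.1 CPM with EGFP(R96H), 8.07 ± 0.75 with EGFP(R96W), 19.7 ± 1.79 with EGFP(R96C) and 16.5 ± 1.06 with EGFP(R96Q). As with CDKN1A, and unlike ASNS, the EGFP(R96C) and EGFP(R96Q) libraries lay above the other 6.

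Immediate early genes, which growth factors and stress switch on within minutes, were also low with EGFP(R96H) and high with both EGFP(R96C) and EGFP(R96Q). Of 25, 18 fell and 1 rose with EGFP(R96H) (median -0.49), 11 rose and 2 fell with EGFP(R96Q) (median 0.29), 13 rose and 1 fell with EGFP(R96C) (median 0.23), and 4 rose and 6 fell with EGFP(R96W) (median -0.06). FOSB (chr19:45467995-45475179) had 7.56, 8.84 and 10.5 CPM with EGFP(R96Q), against 3.52, 3.18 and 2.58 with EGFP(R96W), 3.56, 2.89 and 2.82 with EGFP(R96H) and 3.91, 3.58 and 4.83 with EGFP(R96C). The EGFP(R96Q) libraries lay above the other 9, with a rise of 1.43 ± 0.12 (adjusted p = 2.17e-06). FOSB and FOS are among the largest rises with EGFP(R96Q), which were picked for having no overlap with the other 9 libraries. FOS had 11.2, 14.9 and 24.6 CPM with EGFP(R96Q) and 3.54 to 8.02 CPM in the other 9 libraries, a rise of 1.73 ± 0.17 (adjusted p = 0.000141). EGR1, a zinc finger factor, rose with EGFP(R96Q) by 1.19 ± 0.11 (adjusted p = 1.19e-05). IER3, an early response gene that protects against apoptosis, rose with EGFP(R96C) by 0.72 ± 0.09 (adjusted p = 2.08e-05). MYC was the reverse, at 146.3 ± 10.9 CPM with EGFP(R96H), where it rose by 0.44 ± 0.05 (adjusted p = 1.47e-05), and 95.5 ± 5.68 CPM with EGFP(R96Q).

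Interferon-stimulated genes rose with EGFP(R96H). Of the 24 tested of 29 listed, 12 rose and 2 fell with EGFP(R96H) (median 0.45), 2 rose and 10 fell with EGFP(R96C) (median -0.22, with 6 falling without its replicate 2), 2 rose and 2 fell with EGFP(R96W) (median -0.03), and 1 rose and 2 fell with EGFP(R96Q) (median -0.14). IFIT1, an RNA-binding antiviral protein (chr10:89392546-89406486), had 9.34, 9.55 and 11 CPM with EGFP(R96H), against 4.49, 4.52 and 4.13 with EGFP(R96W), 5.13, 4.3 and 5.08 with EGFP(R96C) and 4.84, 5.41 and 5.41 with EGFP(R96Q). The 3 EGFP(R96H) libraries stood above the other 9, which overlapped, and the rise was 1.02 ± 0.08 (adjusted p = 3.74e-07). IFI44L, at 2.67, 2.13 and 3.91 CPM with EGFP(R96H) and 0.465 to 1.24 CPM in the others, rose by 1.80 ± 0.18 (adjusted p = 3e-06), and DDX60, a helicase, by 1.00 ± 0.12 (adjusted p = 8.91e-06). ISG20, an exonuclease, fell instead by 1.00 ± 0.13 (adjusted p = 3.12e-05).

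Hypoxia-inducible and glycolytic genes rose in 16 and fell in 2 of 28 with EGFP(R96H) (median 0.19). With EGFP(R96W) 1 rose and 10 fell (median -0.12, with 6 falling without its replicate 2). With EGFP(R96C) 7 rose and 8 fell (median 0.02) and with EGFP(R96Q) 2 rose and 8 fell (median -0.09). The fall count was 5 with EGFP(R96C) without its replicate 1 or 2, without EGFP(R96H) replicate 2 or with GC and length offsets. With EGFP(R96Q) it was 4 without its replicate 1 or 2 and 5 with library totals. SLC2A3, a glucose transporter, had 15.8, 14.1 and 13.1 CPM with EGFP(R96H), against 8.35, 7.37 and 8.22 with EGFP(R96W) and 9.79 to 10.5 in the 6 libraries of the other 2 reporters. P4HA1, a collagen prolyl hydroxylase, rose with EGFP(R96H) by 0.45 ± 0.05 (adjusted p = 1.37e-05), whereas ADM, the vasodilator adrenomedullin, fell by 0.59 ± 0.09 (adjusted p = 0.000116). TSC22D3, the glucocorticoid-induced leucine zipper GILZ, had 608, 666 and 744 CPM with EGFP(R96H), against 343, 438 and 591 with EGFP(R96W), 347, 330 and 337 with EGFP(R96C) and 232, 249 and 276 with EGFP(R96Q). It was highest in every EGFP(R96H) library and lowest in every EGFP(R96Q) library (0.96 ± 0.12 and -0.87 ± 0.13 against the rest, adjusted p 0.000199 and 0.0019). TSC22D3 is among the largest falls with EGFP(R96Q), which were picked for having no overlap.

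Replication-dependent histone genes, whose main mRNAs have no polyA tail, were counted here only in polyA-selected RNA and at low levels. Of the 18 tested of 26 listed, 16 rose and 0 fell with EGFP(R96C) (median 0.98), 5 rose and 0 fell with EGFP(R96Q) (median 0.36, with 3 rising without its replicate 1 or without EGFP(R96H) replicate 3), 0 rose and 15 fell with EGFP(R96H) (median -1.08), and 0 rose and 4 fell with EGFP(R96W) (median -0.32). H2AC6 (chr6:26124145-26139116) had 14.7, 12.4 and 13.9 CPM with EGFP(R96C), against 4.83, 4.5 and 4.27 with EGFP(R96W), 2.96, 3.19 and 2.68 with EGFP(R96H) and 12.4, 10.5 and 9.47 with EGFP(R96Q). Every EGFP(R96H) library lay below every EGFP(R96W) library, and both reporters lay below the other 2. The linker histone H1-2 had 20, 23.8 and 18.5 CPM with EGFP(R96C), where it rose by 1.02 ± 0.08 (adjusted p = 4.37e-07), and 6.82, 7.3 and 7.9 CPM with EGFP(R96H), where it fell by 0.99 ± 0.09 (adjusted p = 7.42e-07). The summed histone share was 0.0129% ± 0.00103 of counts with EGFP(R96C), 0.00708% ± 0.000337 with EGFP(R96W), 0.00548% ± 0.000135 with EGFP(R96H) and 0.00976% ± 0.000785 with EGFP(R96Q) (SD, n = 3 each). The 4 groups differed by an exact permutation test of the F statistic, p = 6.49e-05, the smallest that the 15400 arrangements allow, and 0.00026 adjusted over the 4 shares tested. Genes of the S and G2/M phases did not share this order. Of 25 G2/M genes 12 rose with EGFP(R96W) (median 0.14, with 6 rising without its replicate 2), 10 rose and 8 fell with EGFP(R96C) (median 0.08, with 6 rising without its replicate 2), 3 rose and 14 fell with EGFP(R96H) (median -0.17), and 1 rose and 4 fell with EGFP(R96Q) (median -0.04). Within the list, the mitotic kinase PLK1 was highest with EGFP(R96C) at 200.4 ± 5.87 CPM, and the topoisomerase TOP2A lowest there at 532 ± 48.1 CPM. Of 26 S phase genes, 4 rose and 0 fell with EGFP(R96W) (median 0.01), 8 rose and 2 fell with EGFP(R96H) (median 0.09), 6 rose and 5 fell with EGFP(R96C) (median 0.04) and 0 rose and 8 fell with EGFP(R96Q) (median -0.11). Of all genes tested, 11.7%, 18.9%, 18.3% and 11.6% rose and 8.39%, 17.4%, 18.6% and 10.1% fell, in that order of reporters. With each library left out, 1 to 5 rose with EGFP(R96W), the fewest without EGFP(R96H) replicate 2, and 2 to 7 with EGFP(R96C), the fewest without its replicate 1. The EGFP(R96C) falls were 3 without its replicate 2 or 3, without EGFP(R96H) replicate 2 or with GC and length offsets. The EGFP(R96H) rises were 3 without its replicate 2 or 3, and the EGFP(R96Q) falls were 5 without its replicate 1 and 4 without its replicate 2 or 3 or with library totals.

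Cytosolic ribosomal protein genes rose with EGFP(R96C) in 43 of 77 and fell in 0 (median 0.29), and fell with EGFP(R96Q) in 32 and rose in 0 (median -0.26). With EGFP(R96W) 0 rose and 2 fell (median -0.05), and with EGFP(R96H) 2 rose and 0 fell (median 0.01). The counts depended on single libraries: the EGFP(R96C) count was 21 without its replicate 2, 69 without its replicate 3 and 28 with GC and length offsets. The EGFP(R96Q) count was 9 without its replicate 1, 19 without its replicate 3 or with library totals, and 57 without EGFP(R96C) replicate 3. RPS2, a protein of the small subunit, had 5101, 5151 and 5001 CPM with EGFP(R96C), against 3239, 3364 and 4284 with EGFP(R96W), 3867, 3911 and 4213 with EGFP(R96H) and 3478, 3685 and 3724 with EGFP(R96Q). All 3 EGFP(R96C) libraries lay above the other 9 (0.42 ± 0.06, adjusted p = 0.000113). Ribosomal protein genes have many processed copies in the genome, and reads that map to more than 1 place were not counted. Nuclear-encoded respiratory chain subunits rose with EGFP(R96C) in 30 of 45 and fell in 2 (median 0.30). The complex I subunit NDUFB7 had 54.7, 60.6 and 56.3 CPM there, against 28.9, 25.8 and 35.5 with EGFP(R96W), 33.8, 33.8 and 37.2 with EGFP(R96H) and 36.9, 40 and 35.4 with EGFP(R96Q), and rose by 0.73 ± 0.07 (adjusted p = 4.14e-06). The subunits rose in 2 and fell in 9 with EGFP(R96W) (median -0.14), and rose in 1 and fell in 8 with EGFP(R96Q) (median -0.13). With EGFP(R96H) 6 rose and 3 fell (median -0.02), and 2 or 3 rose without its replicate 2 or 3. The EGFP(R96W) falls were 3 without its replicate 1 or 2, 19 without EGFP(R96C) replicate 3 and 14 with library totals, and the EGFP(R96Q) falls 4, 5, 17 and 3 without its replicate 1, its replicate 2 or EGFP(R96C) replicate 3 and with library totals. Of the 13 mitochondrially encoded mRNAs, 7 rose and 0 fell with EGFP(R96C) (median 0.20), where 4 rose without its replicate 1 and also with GC and length offsets (median 0.09). Their share of counts was 4.31% ± 0.198 with EGFP(R96C), 3.87% ± 0.249 with EGFP(R96W), 4.14% ± 0.0297 with EGFP(R96H) and 3.89% ± 0.0601 with EGFP(R96Q) (exact permutation p = 0.0305, also after adjustment, and 0.00299 to 0.0911 with each library left out).

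**Figure D3:**
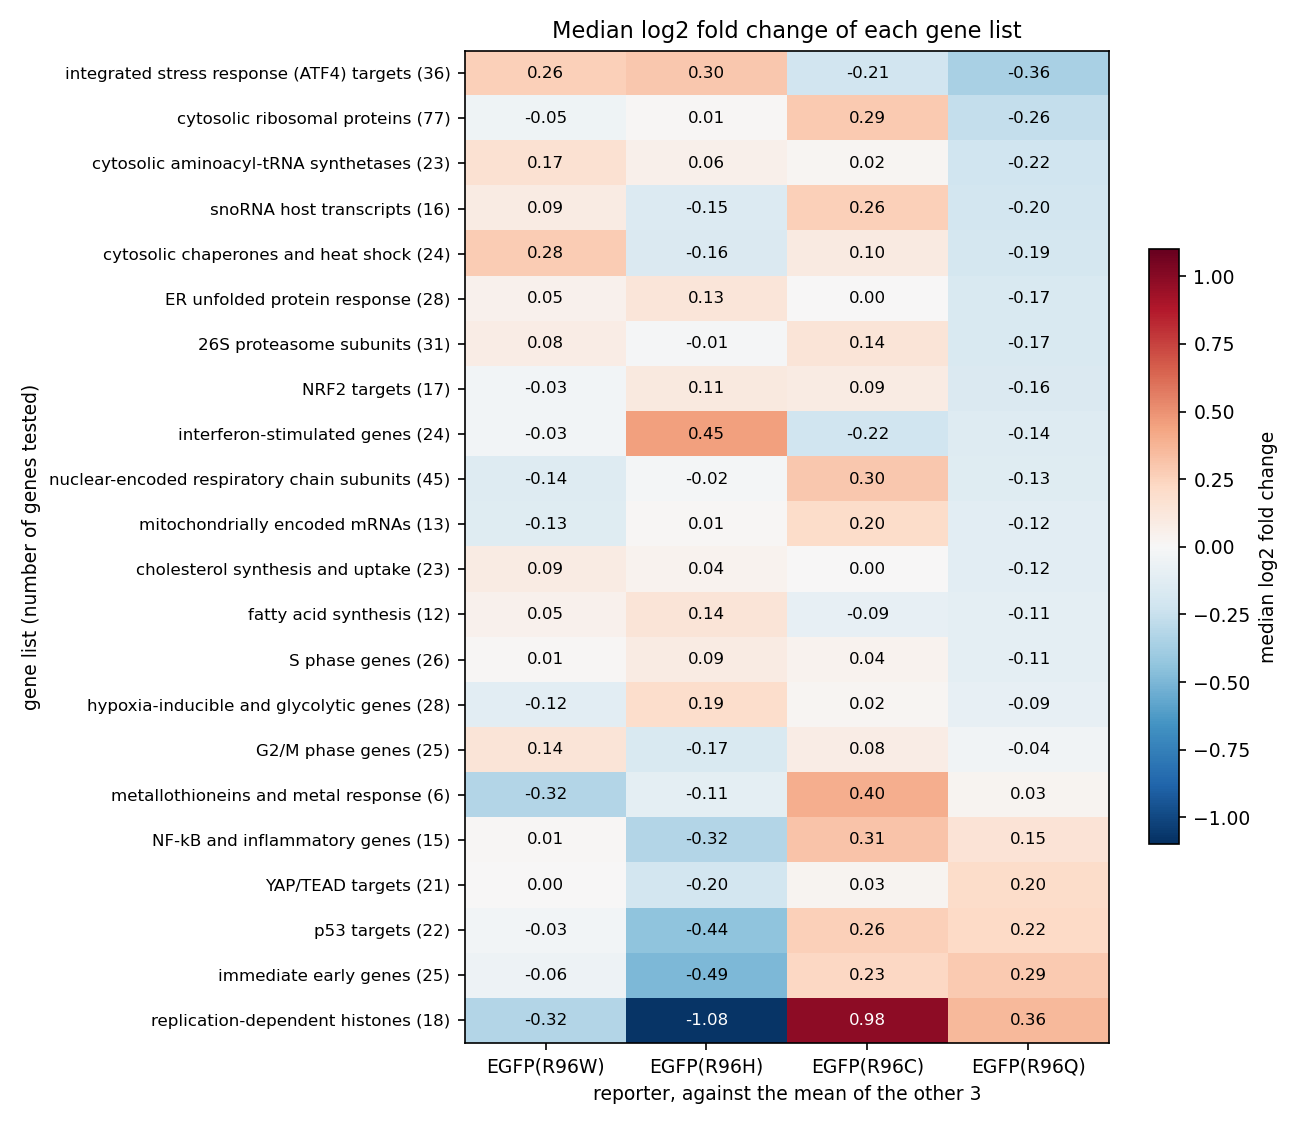
The plot shows the median log2 change of each gene list (rows) for EGFP(R96W), EGFP(R96H), EGFP(R96C) and EGFP(R96Q) against the mean of the other 3 reporters (columns), as colour and as the number printed in each cell, with the number of genes tested beside the list's name. Integrated stress response targets are at 0.26, 0.30, -0.21 and -0.36, and histones at -0.32, -1.08, 0.98 and 0.36.

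The remaining lists are given more briefly, though some of their medians were as large as those of lists above. Of 17 NRF2 targets (oxidative stress), 5, 6, 4 and 1 rose and 1, 1, 5 and 8 fell with EGFP(R96W), EGFP(R96H), EGFP(R96C) and EGFP(R96Q) (medians -0.03, 0.11, 0.09 and -0.16, and 0.02, 0.18, -0.01 and -0.14 with GC and length offsets). The EGFP(R96Q) falls were 5 without its replicate 2 or 3, without EGFP(R96H) replicate 2 or with library totals. PIR, a metal-binding nuclear protein of that list on chromosome X, had 29, 28.4 and 31.1 CPM with EGFP(R96W), 25.7, 24.1 and 27.4 with EGFP(R96H), 13.7, 11.8 and 10.7 with EGFP(R96C) and 10, 10.5 and 10.5 with EGFP(R96Q). Its 4 groups did not overlap (F-test adjusted p = 3.41e-09). GCLM, which limits glutathione synthesis, rose with EGFP(R96W) by 0.55 ± 0.07 and with EGFP(R96H) by 0.44 ± 0.07. Of 23 cholesterol genes, 4 rose and 3 fell with EGFP(R96W), 4 rose and 1 fell with EGFP(R96H), 4 rose and 4 fell with EGFP(R96C), and 1 rose and 7 fell with EGFP(R96Q) (medians 0.09, 0.04, 0.00 and -0.12). Of all genes tested, 11.7%, 18.9%, 18.3% and 11.6% rose and 8.39%, 17.4%, 18.6% and 10.1% fell, in that order of reporters. The EGFP(R96Q) falls were 3 without its replicate 1 or 2 or with library totals, and 3 to 9 with each library left out. INSIG1, which retains SREBP in the ER, fell with EGFP(R96Q) by 0.37 ± 0.07 (adjusted p = 0.00184). Of 15 tested NF-kB and inflammatory genes 8 fell with EGFP(R96H) (median -0.32, with 5, 3 and 4 falling without its replicate 1, 2 and 3) and 5 rose with EGFP(R96C) (median 0.31, with 8 rising without EGFP(R96W) replicate 3). Of 21 YAP/TEAD targets 9 fell with EGFP(R96H) (median -0.20) and 8 rose with EGFP(R96Q) (median 0.20, with 5 and 4 rising without its replicate 1 and 2). Of 12 fatty acid genes 7 rose and 1 fell with EGFP(R96H) (median 0.14), where the rises were 4, 3 and 3 without its replicate 1, 2 and 3 and 3 with library totals. Of 16 snoRNA host transcripts 6 rose and 1 fell with EGFP(R96C) (median 0.26, with 11 rising without its replicate 3 and 4 without its replicate 2), with SNHG12 at 49.2 ± 2.63 CPM there and 26 ± 0.897 CPM with EGFP(R96H). Of 6 tested metal response genes 3 rose and 1 fell with EGFP(R96C) (median 0.40, with 2 to 4 rising with each library left out), with the metallothionein MT2A at 9.39, 11.9 and 7.32 CPM there and 4.68 to 7.35 CPM in the other 9 libraries.

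Some single genes changed by more than any list. ANKRD1, a cardiac ankyrin repeat protein and YAP target (chr10:90912096-90921276), had the smallest F-test adjusted p of the genes named here, 1.51e-09. It had 12.7, 11.5 and 9.15 CPM with EGFP(R96W), 3.87, 4 and 3.56 with EGFP(R96H), 1.44, 1.32 and 1.46 with EGFP(R96C) and 1.3, 0.905 and 0.723 with EGFP(R96Q). The groups did not overlap, and each pair but EGFP(R96C) against EGFP(R96Q) (0.50 ± 0.21, adjusted p = 0.129) was called. CCN1 and CCN2, which are YAP targets too, had another order, with falls with EGFP(R96H) of 0.69 ± 0.07 and 0.64 ± 0.12 on the log2 scale. NKAPL, a testis-expressed paralogue of the NF-kB activating protein (chr6:28259320-28260958), had 4.91, 2.63 and 3.72 CPM with EGFP(R96W), against 0.183, 0.113 and 0.127 with EGFP(R96H), 0.367, 0.224 and 0.457 with EGFP(R96C) and 0.391, 0.379 and 0.315 with EGFP(R96Q). It rose with EGFP(R96W) by 3.85 ± 0.20 (adjusted p = 2.1e-09) and fell with EGFP(R96H) by 2.49 ± 0.31 (adjusted p = 1.79e-05). The other largest rises with EGFP(R96W) were EGF, ANXA1, FILIP1L and MAP2, with EGF at 1.93 to 2.32 CPM against 0.358 to 1.77 CPM in the other 9 libraries. Among its largest falls were CCDC85B, PCSK1N, PPP1R3G, TMEM160 and TTC34.

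SORCS3, a sorting receptor of neurons, had 1.66, 1.16 and 10.5 CPM with EGFP(R96C), where replicate 3 held most of the reads, and 0 to 0.108 CPM in the other 9 libraries (adjusted p = 0.00039). CDK15, a cyclin-dependent kinase, rose with EGFP(R96C) by 2.66 ± 0.22, at 3.08, 3.83 and 6.36 CPM, and the histone gene H4C5 by 1.96 ± 0.22. ABHD16B and PDXP were also among the largest rises, and ACAP2-IT1, C5, DLEU2L, FPGT-TNNI3K, IFI44L and SAMD13 were the largest falls. HEXIM1, the inhibitor of the elongation kinase P-TEFb (chr17:45148502-45152101), split the reporters into couples: 40.1, 36.8 and 35.9 CPM with EGFP(R96W), 40.8, 35.6 and 37.4 with EGFP(R96H), 74.8, 68.8 and 74.2 with EGFP(R96C) and 74.2, 70.7 and 69.6 with EGFP(R96Q). Within each couple the libraries overlapped (EGFP(R96W) against EGFP(R96H) 0.03 ± 0.07, EGFP(R96C) against EGFP(R96Q) -0.02 ± 0.07). NR1D1, the clock repressor REV-ERB alpha, had 7.16, 7.04 and 6.15 CPM with EGFP(R96H), against 11.6, 10.7 and 11 with EGFP(R96W), 21, 18 and 19.7 with EGFP(R96C) and 16.3, 16.6 and 15.4 with EGFP(R96Q), with no overlap between any 2 reporters. The largest rises with EGFP(R96H) were FRMD1, IFI44L, MIR186, OSTN, PIGZ and SAMD9. MIR186 lies within a host gene, so its reads may be the host's.

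**Figure D4:**
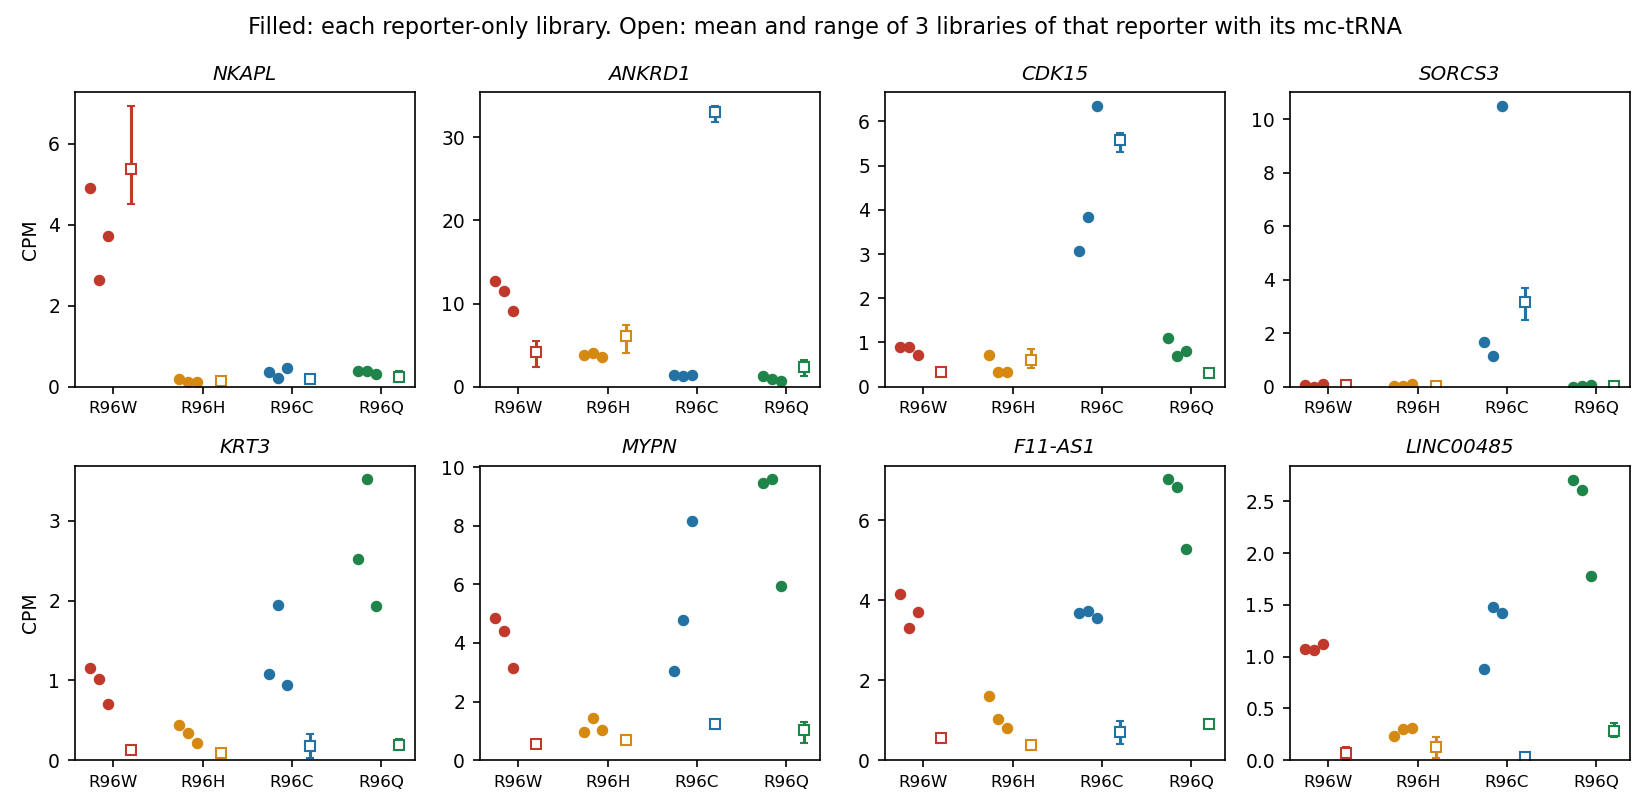
The plots show CPM of 8 genes by reporter, with a filled point for each library of the reporter alone and, beside these, an open square and bar for the mean and range of its 3 libraries with mc-tRNA. NKAPL is high with EGFP(R96W) both ways, and CDK15 and SORCS3 with EGFP(R96C) both ways. KRT3, MYPN, F11-AS1 and LINC00485, which earlier results of EGFP(R96Q) with and without its mc-tRNA had named, are highest with EGFP(R96Q) alone. They are low in all mc-tRNA libraries.

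Several transcripts under 10 CPM had their highest mean with EGFP(R96Q) and their lowest with EGFP(R96H). All of these but COLCA1 had been named in earlier results of EGFP(R96Q) with and without its mc-tRNA. Those results used the same EGFP(R96Q) libraries. A high level with EGFP(R96Q) alone and a low one with its mc-tRNA may therefore follow in part from the choice of genes. KRT3, a corneal keratin, had 2.52, 3.52 and 1.93 CPM with EGFP(R96Q), against 1.15, 1.02 and 0.708 with EGFP(R96W), 0.439, 0.34 and 0.217 with EGFP(R96H) and 1.08, 1.95 and 0.948 with EGFP(R96C). EGFP(R96C) overlapped with EGFP(R96Q) by 1 library and the EGFP(R96H) libraries lay below all others. MYPN, a sarcomere protein, had 9.47, 9.6 and 5.93 CPM with EGFP(R96Q), against 4.87, 4.4 and 3.15 with EGFP(R96W), 0.95, 1.43 and 1.03 with EGFP(R96H) and 3.06, 4.77 and 8.15 with EGFP(R96C). The non-coding LINC00485, JAZF1-AS1 and F11-AS1, the calcium channel gene CALHM1 and COLCA1 had the same order of EGFP(R96Q) over EGFP(R96H), with rises of 1.29 to 1.72 with EGFP(R96Q) and falls of 1.77 to 2.41 with EGFP(R96H). The value of the strand option is not given in the sources used here, so reads of antisense genes may be shared with their partners. In the 12 libraries with an mc-tRNA on the R96 reporters KRT3 had 0.0299 to 0.327 CPM, and in the 3 with EGFP(R65) alone it had 7.88 to 10.2 CPM. FMC1, a mitochondrial assembly factor, did not differ among the 4 reporters beyond their spread (5.09 to 8.9 CPM, F-test adjusted p = 0.617).

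The direction of the changes moved with base composition, and the part of composition in the results above was not tested beyond the offsets named here. GC content was known for 91.9% of the genes tested. Genes were split into 5 equal groups. In the group with the lowest GC content (23.53 to 41.23%), the median log2 change was 0.18 with EGFP(R96W), 0.15 with EGFP(R96H), -0.25 with EGFP(R96C) and -0.09 with EGFP(R96Q). In the group with the highest (57.82 to 76.75%) it was -0.14, -0.10, 0.17 and 0.09 for the same reporters. Across pairs the lowest-GC group gave 0.32 for EGFP(R96W) against EGFP(R96C) and 0.02 for EGFP(R96W) against EGFP(R96H). Transcript length gave medians of -0.10, -0.12, 0.16 and 0.07 in the group of shortest transcripts and 0.08, 0.04, -0.13 and 0.01 in the longest. The share of counts in the 100 most counted genes was 18.9% ± 0.898, 19.7% ± 0.405, 20% ± 0.543 and 17.8% ± 0.164 with EGFP(R96W), EGFP(R96H), EGFP(R96C) and EGFP(R96Q) (SD, n = 3 each, exact permutation p = 0.0102, adjusted 0.0136). With offsets for GC content and length, 2 list medians over 0.03 in size turned sign, that of aminoacyl-tRNA synthetases with EGFP(R96H) and that of NRF2 targets with EGFP(R96C), and that of S phase genes with EGFP(R96C) was 0.00 in place of 0.04. With library totals, the median of all genes was 0.06 with EGFP(R96Q), where the G2/M median was 0.03 in place of -0.04.

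**Figure D5:**
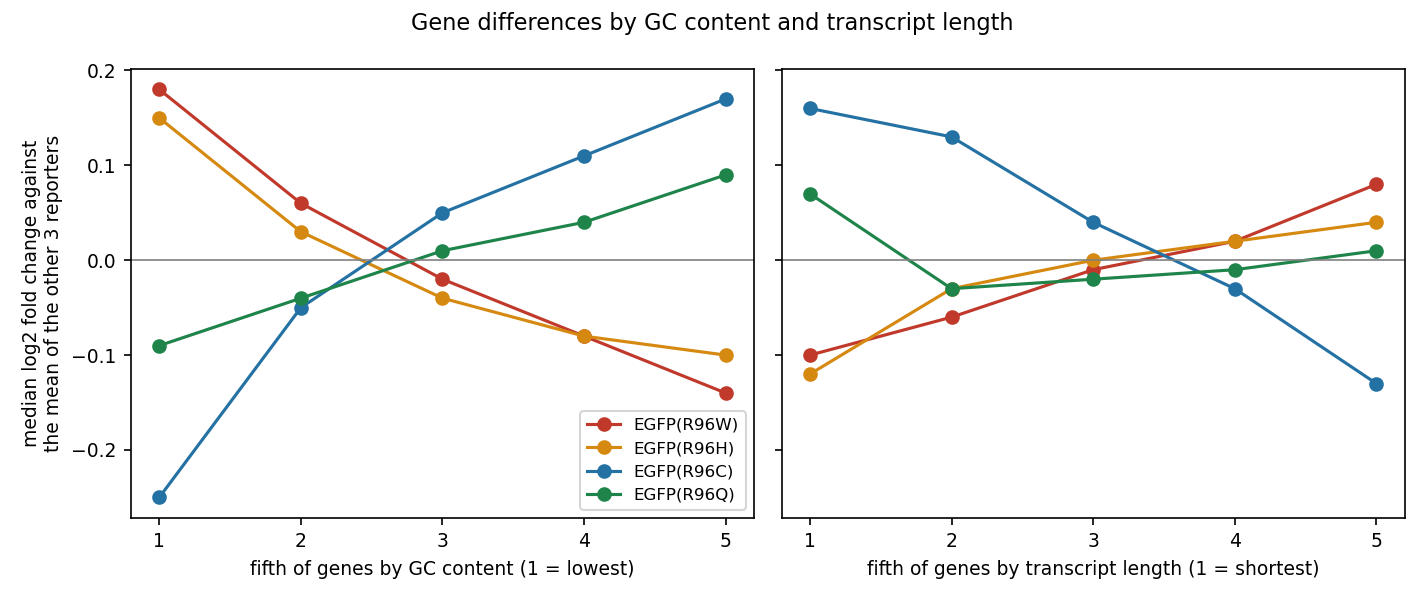
The plots give the median log2 change of each reporter against the mean of the other 3 in 5 equal groups of genes by GC content (left) and by transcript length (right). In the lowest-GC group EGFP(R96W) and EGFP(R96H) lie at 0.18 and 0.15 and EGFP(R96C) and EGFP(R96Q) at -0.25 and -0.09, and the order turns round in the highest-GC group.

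The EGFP(R96H) and EGFP(R96Q) reporters could be compared a second time, in 6 libraries that carry them with their mc-tRNAs, Arg-tRNA_His(GUG) and Arg-tRNA_Gln(CUG), and that did not enter the results above. This pair was chosen because its mc-tRNAs had the smallest effects in earlier results of these data. Its mc-tRNAs differ, so the reporter and the mc-tRNA cannot be told apart in these 6 libraries. The other pairs of reporters were not tested with mc-tRNA. There 7029 of 20684 genes (34%) differed between EGFP(R96H) and EGFP(R96Q), 3497 higher and 3532 lower (2037 and 4703 with library totals). Of the 20363 genes tested both with and without mc-tRNA, 6973 were called with mc-tRNA and 7598 without, and 4371 in both. The direction was the same for 4350 of these, which is 62.4% of the list with mc-tRNA and 57.3% of the list without, and opposite for 21. Of 1292 genes that differed at least 2-fold without mc-tRNA, 639 (49.5%) were called in the same direction with it. Across genes the 2 sets of log2 differences had r = 0.69, a description in which genes are not independent and the reporter may again share a day or other handling with its mc-tRNA libraries.

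The median EGFP(R96H) against EGFP(R96Q) difference had the same sign with and without mc-tRNA for 20 of the 24 lists. For integrated stress response targets 19 were higher and 0 lower with mc-tRNA (median 0.23), against 29 and 0 without (median 0.53). For p53 targets 1 was higher and 17 lower with mc-tRNA (median -0.29), against 1 and 18 without (median -0.48). Hypoxia-inducible genes had 15 higher and 2 lower both ways (medians 0.20 with and 0.21 without), and cholesterol genes 16 higher and 1 lower with mc-tRNA (median 0.24), against 7 and 0 without (median 0.13). SLC7A11 averaged 96.2 ± 17.4 CPM with EGFP(R96H) and its mc-tRNA and 58.5 ± 13.8 with EGFP(R96Q) and its mc-tRNA (0.68 ± 0.20, adjusted p = 0.0313), and HEXIM1 averaged 42.6 ± 3.95 and 71.5 ± 7.91 CPM in the same order. Interferon-stimulated genes, G2/M genes, cytosolic chaperones and the metal response list were the exceptions. With mc-tRNA 3 interferon-stimulated genes were higher and 5 lower (median -0.02), against 12 and 2 without (median 0.36). For histones, 1 gene was higher and 2 lower with mc-tRNA (median -0.16), against 0 and 12 without. G2/M genes had 13 higher and 0 lower with mc-tRNA (median 0.17), against 5 and 10 without (median -0.11). The change of a list as a whole was not tested. The difference itself changed with the mc-tRNAs for 236 genes (1.14%), or for 1339 in a fit with a block for the replicate number. Of the 236, 90 changed in the negative direction, and 3332 genes had an unadjusted p under 0.05 in the fit without the block. The count was 97, 58 or 465 without EGFP(R96Q) replicate 1, 2 or 3, 125, 67 or 57 without EGFP(R96H) replicate 1, 2 or 3, 386 or 71 without replicate 1 or 3 of EGFP(R96Q) with its mc-tRNA, and 42, 49 or 399 without replicate 1, 2 or 3 of EGFP(R96H) with its mc-tRNA. H2AC6 was among them, with an EGFP(R96H) against EGFP(R96Q) difference of -0.36 ± 0.13 with mc-tRNA and -1.92 ± 0.13 without (difference of the 2, 1.56 ± 0.18, adjusted p = 0.000349).

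For the genes with the largest changes, the same reporter's mc-tRNA libraries gave a further look, since a gene may stay apart there from the other 9 mc-tRNA libraries. Of the 6 named rises with EGFP(R96C), 4, with CDK15, H4C5 and SORCS3 among them, had all 3 of its mc-tRNA libraries above the other 9, as did 20.3% of all genes tested. For the rises with EGFP(R96W), EGFP(R96H) and EGFP(R96Q) it was 1 (NKAPL), 1 (SAMD9) and 2 (JAZF1-AS1 and LINC00485) of 6, where the share of all genes was 4.15%, 9.55% and 8.2%. For the falls it was 0 with EGFP(R96W), 0 with EGFP(R96H), 1 with EGFP(R96C) (FPGT-TNNI3K) and 2 with EGFP(R96Q) (SRD5A3 and TSC22D3) of 6, where the share of all genes was 3.76%, 3.97%, 21.1% and 8.88%. NKAPL averaged 5.38 ± 1.35 CPM with EGFP(R96W) and its mc-tRNA and lay at or below 0.388 CPM in the other 9 mc-tRNA libraries. ANKRD1, in contrast, averaged 33.1 ± 1.05 CPM with EGFP(R96C) and its mc-tRNA and 4.13 ± 1.56 CPM with EGFP(R96W) and its mc-tRNA, so its order among reporters alone was not that among the same reporters with mc-tRNAs.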

How the data were processed

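Strand-specific polyA mRNA libraries were made per the labels' protocols. STAR, SAMtools and featureCounts with hg38 made the deposited table, per the submitters' processing notes. Their versions, the annotation and how the strand option was set are not given in the sources. What the authors deposited is 1 raw count per gene of uniquely mapped read pairs, per the file headers, without normalization. The labels call the 3 libraries of a group independent replicates.

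Counts of 20676 genes (filterByExpr, minimum count 10) in the 12 libraries were fitted in edgeR 4.0.16 (R 4.3.3) with TMM factors and robust quasi-likelihood dispersion, 4 group means and 8 residual degrees of freedom (biological coefficient of variation 8.82%). The EGFP(R96H) and EGFP(R96Q) libraries with and without mc-tRNA had a fit of their own (20684 genes, 7.24%). There were 13 tests across genes, each with Benjamini-Hochberg adjustment at 0.05, and SE is the log2 fold change over the root of F. Printed CPM use TMM factors over all 30 libraries. Replicate pairs differed by more than counting error (chi-square 4.28 to 41.4 per degree of freedom). The 92 ERCC spike-in sequences entered no test across genes.

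Members and gene lists were chosen with earlier results of these data known. Named genes are the 6 largest rises and falls per reporter among called genes with a mean of at least 1 CPM and no overlap of its 3 libraries with the other 9, up to 4 members of each list by F-test adjusted p, the 6 smallest F-test p-values, and a fixed set of stress and earlier named genes; other members are named to account for a list. Some genes that the rule picks are not reported here. Alternatives were RLE factors, library totals, no filter on low counts, DESeq2 1.42.0, fits with more libraries, a replicate block, each library left out and, added after seeing the data, GC and length offsets. Gene positions are GRCh38 (GENCODE 29), and promoter sequences are from RefSeq, GRCh38.p14.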

Additional observations from a re-analysis of the deposited data

Results flagged for a closer look

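Reads of ERCC spike-in sequences, which no gene test used, were present in the 12 libraries although the labels mention no spike-in. Over the 3 libraries of a group, ERCC-00014 had 0.818 CPM (relative to gene counts) with EGFP(R96W), 0.263 with EGFP(R96H), 0.983 with EGFP(R96C) and 1.59 with EGFP(R96Q), and 0 counts in the EGFP(R65) libraries. The 4 R96 values rest on 42 reads (EGFP(R96H)) to 212 reads (EGFP(R96Q)) a group. All ERCC sequences together had 1 ± 0.261, 0.395 ± 0.0184, 1.53 ± 0.327 and 2.16 ± 0.517 on that scale in the same 4 groups (SD, n = 3 each, exact permutation p = 0.00169, adjusted 0.00338). With mc-tRNA, ERCC-00014 had 0.258, 0.0904, 0.318 and 0.356 on the same scale in EGFP(R96W), EGFP(R96H), EGFP(R96C) and EGFP(R96Q). The other ERCC sequences together had 0.19, 0.132, 0.535 and 0.526 without mc-tRNA and 0.39, 0.188, 0.333 and 0.456 with it, in that order. ERCC-00014 was thus lower with mc-tRNA for each reporter, and the other ERCC sequences only for EGFP(R96C) and EGFP(R96Q). Their part in the differences between reporters was not tested.

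The EGFP(R96H) against EGFP(R96Q) difference changed with the mc-tRNAs in 236 genes, by the test of that change (edgeR, without the replicate block, which gave 1339). Among named genes the change, with mc-tRNA minus without, was 1.89 for COLCA1 (adjusted p = 0.00863), 2.29 for MYPN (adjusted p = 0.026), -1.54 for FMC1 (adjusted p = 7.97e-08), -0.82 for IFIT1 (adjusted p = 0.0135), -0.66 for PIR (adjusted p = 0.00154) and -0.57 for SRD5A3 (adjusted p = 0.0162), on the log2 scale. FMC1 averaged 74.9 ± 2.73 CPM with EGFP(R96H) and its mc-tRNA and 190 ± 14.1 CPM with EGFP(R96Q) and its mc-tRNA, against 7.34 ± 0.731 and 6.37 ± 0.251 CPM with these reporters alone. IFIT1 averaged 6.12 ± 0.775 and 5.7 ± 0.176 CPM with the mc-tRNAs, and 9.98 ± 0.932 and 5.22 ± 0.329 CPM without.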

How the results depend on the processing

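The counts for the F-test, the 6 pairs, the 4 contrasts against the rest and the EGFP(R96H) against EGFP(R96Q) pair with mc-tRNA stayed within 1.5 times under RLE factors, library totals, no filter on low counts, DESeq2, fits with more libraries, the replicate block and GC and length offsets. The 236 genes whose EGFP(R96H) against EGFP(R96Q) difference changed with mc-tRNA became 1339 with the replicate block. They became 833 with no filter on low counts, 668 with DESeq2 and 401 with GC and length offsets. The cause was not tested.

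With each library left out, the lowest and highest counts were 9633 and 12247 for the F-test, 634 and 2916 for EGFP(R96W) against EGFP(R96H), 5262 and 7618 for EGFP(R96W) against EGFP(R96C), 2879 and 5733 for EGFP(R96W) against EGFP(R96Q), 7107 and 9500 for EGFP(R96H) against EGFP(R96C), 5308 and 8314 for EGFP(R96H) against EGFP(R96Q), and 464 and 3855 for EGFP(R96C) against EGFP(R96Q). Against the rest they were 1297 and 4722 for EGFP(R96W), 4573 and 8157 for EGFP(R96H), 5322 and 8140 for EGFP(R96C) and 2200 and 5333 for EGFP(R96Q). With mc-tRNA they were 5018 and 7422 for EGFP(R96H) against EGFP(R96Q), and 42 and 465 for the change of that difference. The permutation p of the mitochondrial share was 0.00299 to 0.0911, and that of the 100 most counted genes 0.00188 to 0.0356.

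The replicate numbers were not taken to pair the libraries. Over 18 same-numbered pairs of the reporter-only libraries the correlation of deviations was -0.245 to 0.141 (3 above 0.1), and 6 of 12 libraries were closest to their own number. Among the EGFP(R96H) and EGFP(R96Q) libraries with and without mc-tRNA it was -0.0947 to 0.17 over 18 such pairs (4 above 0.1), and 9 of 12 were closest to their own number. There the replicate block gave 8186 genes for EGFP(R96H) against EGFP(R96Q) with mc-tRNA in place of 7029, and 1339 for the change of that difference in place of 236. Among the reporter-only libraries it gave 11148 genes in the F-test, 2095 for EGFP(R96W) against EGFP(R96H) and 2093 for EGFP(R96C) against EGFP(R96Q). Of 2960 values of named genes under the alternatives, 2932 kept their direction and their side of the threshold, 28 lost their call and 0 changed sign. The 3 libraries per reporter, with no label of day or batch, limit every comparison, and genes near the 3-count floor limit the smallest levels.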
